A study of Homo sapiens with 36 samples.

Results

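Interferon-stimulated genes (ISGs) were followed in 4 prostate cancer (PCa) cell lines grown alone or beside bone cells. The list held 41 genes named by symbol, with no measured value in the rule, but it was chosen with earlier results of these data known. Of these, 40 had transcripts in the table of 27852 genes, and ISG15 was not analysed here. C4-2 and its bone-derived subline C4-2B are lines that form osteoblastic lesions (BPCa), and DU145 and 22Rv1 are lines that form osteolytic lesions (LPCa). Each line was mono-cultured without additive (n = 3), co-cultured with MG63, a human osteosarcoma line used as an osteoblast (OB)-like cell (n = 2), mono-cultured with 50 ng/mL RANKL, the cytokine that drives osteoclast formation (n = 2), or co-cultured with RAW264.7, a mouse monocytic line that serves as the osteoclast precursor, in the presence of 50 ng/mL RANKL (n = 2). RNA was taken from the PCa cells after 5 days, and the co-cultures shared medium across a filter without cell contact. This gave 36 libraries in 16 groups. The labels do not say whether replicates of a group were separate experiments, so the p-values measure the spread between these libraries, which may be technical. Every line is a single line, so BPCa and LPCa are each represented by 2 lines, of which C4-2 and C4-2B are closely related.

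ISGs are the genes switched on when interferon binds its receptor. The receptor-bound kinases JAK1 and TYK2 phosphorylate STAT proteins, STAT2 among them, which join IRF9 and bind the interferon-stimulated response element (ISRE) in ISG promoters, while a second element, the STAT site, is bound by STAT dimers. The products block viral translation (IFIT proteins), sense or degrade RNA (OAS proteins and ISG20), attach the ubiquitin-like protein ISG15 to targets (UBE2L6, HERC5) or remove it (USP18), and process antigen (PSMB8). IRF1 is itself an ISG and a transcription factor that also responds to inflammatory cytokines through NF-kB. In tumour cell lines, ISGs can be expressed without added interferon.

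Total counts ranged from 23932472 to 36719047 in the mono-cultures without additive and from 9593426 to 15418211 in all other libraries, so 3 counts, taken as the detection limit, corresponded to at most 0.125 and 0.313 CPM (counts scaled to a library total of 1000000), respectively. Depth therefore differed between the mono-cultures without additive and the MG63 co-cultures, whereas the mono-cultures with RANKL, at 10097501 to 13373083 counts, were close in depth to the MG63 co-cultures (10418452 to 15397563), and for that reason the MG63 co-cultures were also set against them, a comparison in which RANKL differs as well. In bulk RNA, fewer expressing cells and less RNA per cell cannot be told apart. The summed level of 6 genes of androgen receptor-positive prostate cells was 4254 to 8128 CPM in C4-2 and C4-2B, 782 to 1037 CPM in 22Rv1 and 26.5 to 32.9 CPM in DU145. The 13 markers of MG63 and mesenchymal cells summed to 9.70 to 10.1 CPM in C4-2 mono-cultures and 9.43 to 14.5 CPM with MG63, to 9.48 to 9.96 and 9.69 to 10.8 CPM in C4-2B, to 18.6 to 22.4 and 26.5 to 27.6 CPM in 22Rv1, and to 8.79 to 10.7 and 8.95 to 15.3 CPM in DU145. Of these 13, some were at or under 3 counts in all libraries of a group. Their number was 3, 3, 2 and 3 in the deeper mono-cultures without additive of C4-2, C4-2B, 22Rv1 and DU145. It was 6, 6, 4 and 7 in the MG63 co-cultures and 6, 7, 7 and 6 in the RANKL mono-cultures, which were close in depth. The RANKL mono-cultures summed to 21.6 to 24.9 CPM in 22Rv1 and 7.99 to 8.17 CPM in DU145, below the MG63 co-cultures. In C4-2 and C4-2B the MG63 sums did not lie wholly above those with RANKL. THY1 was at or under 3 counts in every MG63 co-culture and in every RANKL mono-culture. POSTN was so in all mono-cultures and in the MG63 co-cultures of C4-2, C4-2B and DU145, whereas in 22Rv1 with MG63 it reached 0.275 CPM in 1 library. The part of MG63 RNA in the results was not tested. The 10 macrophage and osteoclast markers summed to 12.4 to 67.7 CPM with RAW264.7 and 13.7 to 67.4 CPM in the RANKL mono-cultures, and TYROBP was at or under 3 counts in all groups. The 2 DU145 MG63 libraries stood apart from each other, with a chi-square of 165 per gene against 2.94 to 6.74 for every other pair of replicates, so the calls in DU145 with MG63 are given with and without each.

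Of the 40 members, 29 reached 100 counts in at least 1 library and were tested, of which 24 also reached it among the RANKL libraries. The other 11 never reached 100 counts. Their highest levels were 0.546 CPM for SAMD9L, 0.673 for IFI27, 1.08 for EPSTI1, 1.21 for IFI44L, 1.72 for OAS2, 2.28 for UBD, 2.63 for RSAD2, 2.90 for GBP1, 2.98 for OAS1, 3.95 for IFIH1 and 4.32 for XAF1. Calls are adjusted p-values under 0.05 from edgeR's quasi-likelihood test over all genes fitted, and fold changes are log2 values with their standard error (SE). GBP2, IFI44, IFIT1, IFIT2, IFIT3, IFIT5, IRF1, OASL, PSMB8, SAMD9 and UBE2L6 reached 100 counts only in DU145. Of these, OASL, IFIT2, IFIT3 and SAMD9 did not exceed 12 counts in any library of the other lines.

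The sequences just before the transcription start of 4 members are shown because interferon acts on ISGs through elements there. RefSeq windows (GRCh38.p14) were available for 32 of the 40 members, and the 250 bases before the start were searched on both strands. The ISRE core, which is GAAA, any 2 bases and GAAA again, occurred in 16 of the 32 windows and in 3.07% of 27305 promoters. The STAT site, TTCNNNGAA, occurred in 8 (25.0%) against 6.78%. The NF-kB motif, searched by its usual 10-base form, occurred in 6 (18.8%) against 5.05%. IFIT3 is drawn from chr10:89327747-89327893 on the + strand, with 2 ISRE cores on the strand opposite to the gene. IFI6, a mitochondrial antiviral protein, is drawn from chr1:27672219-27672442 on the - strand, with 3 ISRE cores. BST2, also called tetherin, which holds budding virions at the cell surface, is drawn from chr19:17405649-17405880 on the - strand, with 2 overlapping ISRE cores, 2 STAT sites and an NF-kB motif, of which the upstream STAT site overlaps the first ISRE core. IRF1 is drawn from chr5:132490799-132491023 on the - strand, with a STAT site and an NF-kB motif but no ISRE core in the window. Each is written 5′ to 3′ on the strand of the gene up to the start of the annotated gene, with matches in capitals. A match is a description of letters, and binding was not measured.
IFIT3: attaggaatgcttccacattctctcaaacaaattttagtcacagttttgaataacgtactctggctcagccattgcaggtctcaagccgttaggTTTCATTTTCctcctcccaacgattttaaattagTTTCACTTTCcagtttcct
IFI6: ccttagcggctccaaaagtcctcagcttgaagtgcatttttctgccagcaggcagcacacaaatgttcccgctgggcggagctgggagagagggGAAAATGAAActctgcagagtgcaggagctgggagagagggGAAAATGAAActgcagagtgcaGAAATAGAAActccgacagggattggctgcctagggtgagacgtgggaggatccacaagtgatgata
BST2: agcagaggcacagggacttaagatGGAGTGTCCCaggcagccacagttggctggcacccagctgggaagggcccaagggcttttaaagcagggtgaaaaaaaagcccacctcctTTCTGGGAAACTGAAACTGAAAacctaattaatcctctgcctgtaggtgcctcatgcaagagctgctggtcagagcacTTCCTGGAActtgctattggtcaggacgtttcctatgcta
IRF1: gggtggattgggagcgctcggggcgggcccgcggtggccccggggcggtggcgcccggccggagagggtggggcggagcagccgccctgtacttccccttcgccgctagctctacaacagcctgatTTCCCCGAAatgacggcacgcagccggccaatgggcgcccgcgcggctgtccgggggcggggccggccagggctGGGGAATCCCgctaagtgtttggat

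The first comparison was between the lines without additive. DU145 carried by far the highest ISG levels. The 40 members summed to 613 ± 24.6 CPM (SD, n = 3) in DU145, against 197 ± 2.66 in C4-2, 214 ± 5.55 in C4-2B and 192 ± 5.13 in 22Rv1, with no overlap between DU145 and the other lines. Of the 29 tested members, 21 were higher and 4 lower in DU145 than in 22Rv1, 20 and 5 than in C4-2, and 19 and 6 than in C4-2B. The lines differed in most of the transcriptome, so these counts need their background. Of all genes, 39.1% were higher and 40.5% lower in DU145 than in 22Rv1, 39.3% and 39.0% than in C4-2, and 39.7% and 39.3% than in C4-2B. The share of members called was thus near that of all genes, and 11 of the 29 tested members reached 100 counts in DU145 alone, so the count and median of tested members favour DU145 by the filter itself. Their median fold change was 2.18 against 22Rv1, 1.68 against C4-2 and 1.35 against C4-2B. Without the filter, over all 40 members, the medians were 0.92, 0.94 and 1.04, beside all-gene medians of -0.02, 0.00 and 0.00. In that fit 24, 21 and 21 members were higher and 7 lower in each pair, beside 23.8%, 24.0% and 24.4% of all genes higher and 27.7%, 26.5% and 26.9% lower.

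**Figure D1:**
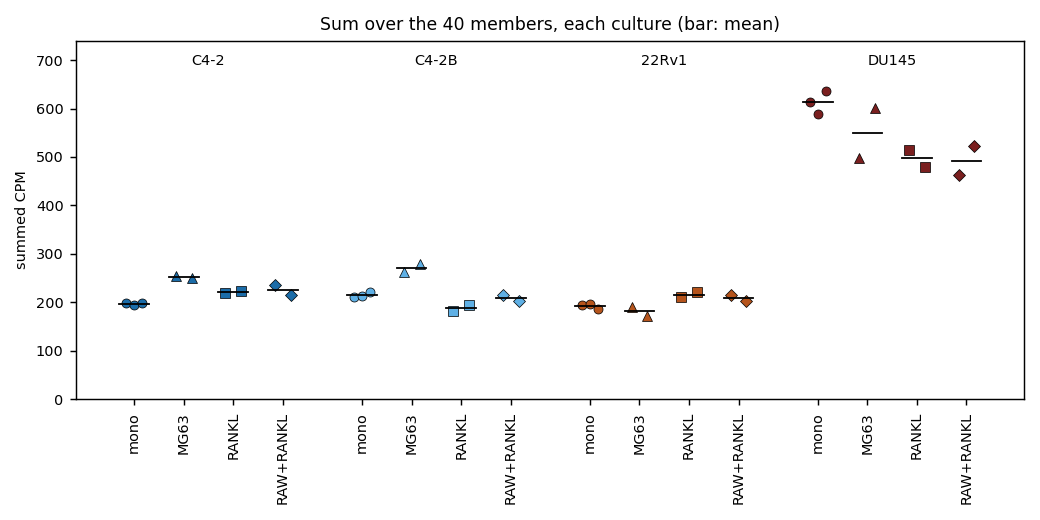
Summed level of the 40 interferon-stimulated genes (CPM, y axis) in each library, by line and culture (x axis); points are libraries and bars are means. The DU145 libraries lie between 462 and 637 CPM and all others between 172 and 279 CPM, and in C4-2 and C4-2B the MG63 co-cultures lie above every other culture of the line.

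Among the members higher in DU145 were OASL, IFIT1, IFIT2, IFIT3, PSMB8 and IRF1. OASL, a catalytically inactive OAS relative, was at 50.8, 45.7 and 54.8 CPM in DU145 mono-cultures and at or below 0.211 CPM in all mono-cultures of the other lines. IFIT1 was at 48.6, 47.3 and 55.6 CPM in DU145 and between 0.863 and 1.69 CPM elsewhere. Its counts lay mostly on 1 protein-coding transcript in DU145 (95.6%) and on another in C4-2 (99.2%) and C4-2B (97.4%). IFIT3 was at 36.3, 36.4 and 42 CPM in DU145 and at or below 0.271 CPM elsewhere. These genes were thus expressed in DU145 and close to the detection limit, or near 1 CPM, in the other lines. IFIT2 was at 21.4, 19.9 and 24.6 CPM in DU145, and at or under 3 counts in 22Rv1, which made it at least 175-fold higher in DU145. PSMB8, an immunoproteasome subunit, was at 47.0 to 50.6 CPM in DU145 and 0.433 to 2.18 CPM elsewhere. IRF1 was at 23.4, 23.8 and 25.4 CPM in DU145 and 0.863 to 2.14 CPM in the other lines. SAMD9, an antiviral factor and growth regulator, was at least 23.2-fold higher in DU145 than in 22Rv1, where it was at or under 3 counts.

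A few members ran the other way. CMPK2, a mitochondrial nucleotide kinase, was at 0.0491 to 0.377 CPM in DU145 and 1.44 to 3.62 CPM in the other lines. BST2 was at 0.583 to 0.962 CPM in DU145, 1.21 to 2.05 in 22Rv1, 6.47 to 7.5 in C4-2 and 6.95 to 8.94 in C4-2B. PARP9 and DTX3L, an ADP-ribosyltransferase and the E3 ligase with which it forms a complex, were lower in DU145 in all 3 pairs, by 1.01, 0.36 and 0.58 for PARP9 and 0.34, 0.42 and 0.67 for DTX3L on the log2 scale against 22Rv1, C4-2 and C4-2B. Per transcript length, the highest members of the mono-cultures were TRIM22 (27.8 ± 3.91 TPM), ISG20 (18.1 ± 0.271) and STAT2 (16.9 ± 1.2) in C4-2, TRIM22 (32.3 ± 6.38), STAT2 (19.5 ± 1.97) and ISG20 (18.6 ± 0.508) in C4-2B, and TRIM22 (22.9 ± 3.94), STAT2 (22.5 ± 2.16) and ISG20 (18.3 ± 2.61) in 22Rv1 (SD, n = 3), with several neighbours within their spread. These were STAT2, MX1 (16.3 ± 1.14) and IRF9 (15.2 ± 2.65) in C4-2, STAT2 and ISG20 in C4-2B, and in 22Rv1 TRIM22 and STAT2 as well as ISG20 and MX1 (16.5 ± 0.823). Parts of these levels lay on transcripts not annotated as coding. The top MX1 transcript was a retained intron in C4-2, C4-2B and 22Rv1 (52.0%, 53.7% and 43.0% of counts) and protein-coding in DU145 (39.9%). The top STAT2 transcript was a processed transcript in all 4 lines (35.9% to 41.0%). In DU145 the order began with IFI6 (62.2 ± 3.57 TPM), PSMB8 (44.2 ± 1.34) and STAT2 (30.6 ± 0.361), of which PSMB8 is uncertain because only 5 of its 40 transcripts had a length.

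**Figure D2:**
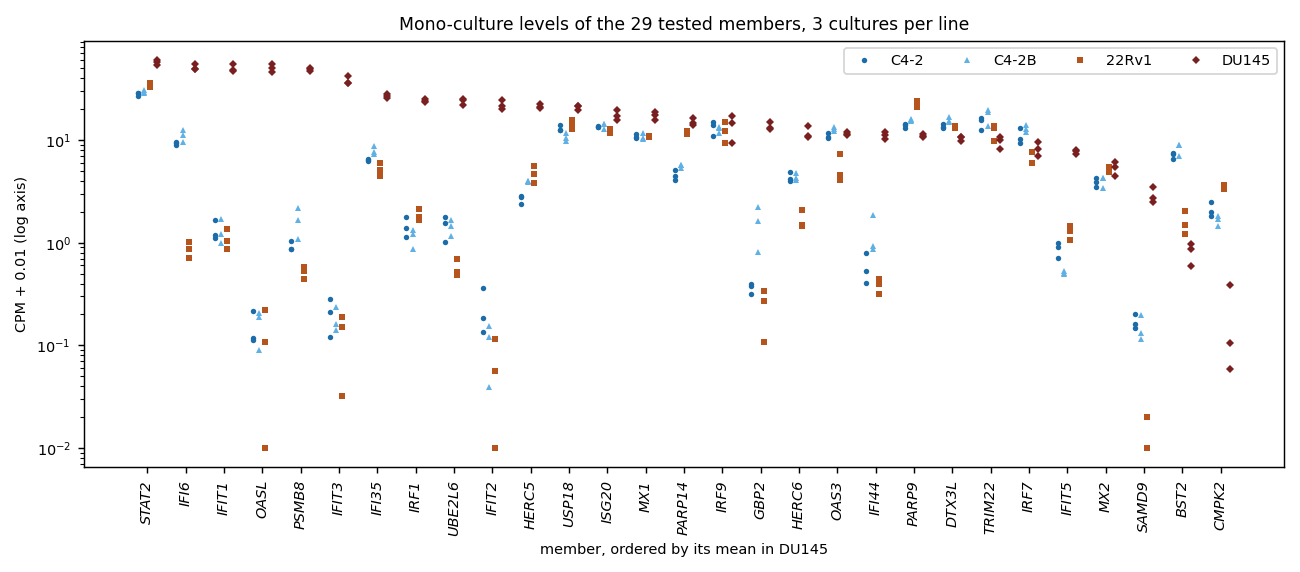
Mono-culture levels of the 29 tested members (x axis, ordered by their mean in DU145) on a log axis of CPM with 0.01 added (y axis), with 3 points per line; levels are compared between lines within a gene. DU145 lies above the other lines for OASL, the IFIT genes, PSMB8, IRF1 and GBP2, and below them for BST2 and CMPK2.

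In 22Rv1, 5 members were higher and 9 lower than in C4-2, beside 36.4% and 35.6% of all genes, and 7 were higher and 13 lower than in C4-2B, beside 36.8% and 35.7%. As shares of the 29 tested members, these were no larger than those of all genes except for the members lower than in C4-2B. IFI6 was at 0.697 to 1.01 CPM in 22Rv1 and 9.01 to 12.6 CPM in C4-2 and C4-2B. PARP14, a mono-ADP-ribosyltransferase, was higher in 22Rv1, at 11.4 to 12.3 CPM against 4.12 to 5.73. Between the related lines C4-2B and C4-2, only GBP2 (2.14, SE 0.35, adjusted p = 4.6e-04) and HERC5 (0.62, SE 0.16, adjusted p = 0.014) passed, both higher in C4-2B, beside 13.6% of all genes.

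The upstream genes of the pathway were read from a list of 33 genes, of which 21 were tested. Ligand transcripts were almost absent. IFNG was at 0 in all mono-cultures and MG63 co-cultures, and IFNB1 did not exceed 0.0640 CPM in them. IFNA1, at 1.04, 1.34 and 1.29 CPM, and IFNE, at 1.94, 2.19 and 3.15 CPM, were detected in DU145 mono-cultures but were at or under 3 counts in all mono-cultures of the other lines. JAK1 was at 47.7 CPM in DU145 (mean, n = 3) and 3.25 to 3.70 CPM in the other lines, a log2 difference of 3.70 to 3.80 with adjusted p from 5.0e-12 to 7.9e-12. The DNA sensor CGAS (19.2 CPM) and its adaptor STING1 (71.6 CPM) were also high in DU145, against means of at most 0.275 and 0.318 CPM elsewhere. DDX58, the RNA sensor RIG-I, was at 7.47 CPM in DU145 and at 0 in all C4-2 mono-cultures. IFNLR1, the type III interferon receptor chain, was at 0 in C4-2 and C4-2B mono-cultures and at 3.87 and 4.37 CPM in DU145 and 22Rv1. IFNAR1, a chain of the type I receptor, was at 19.9 to 23.7 CPM in all 4 lines and was not called between DU145 and any other line (adjusted p = 0.12 to 0.65). Of the 21 genes, 14, 12 and 13 were higher and 1, 3 and 4 lower in DU145 than in 22Rv1, C4-2 and C4-2B, beside 39.1%, 39.3% and 39.7% of all genes higher and 40.5%, 39.0% and 39.3% lower. Of these 21, CGAS, DDX58, SOCS3 and STING1 passed the filter through DU145 alone, so these counts favour DU145 by the filter as well. Without the filter, 31 of the 33 genes were fitted, of which 16, 15 and 14 were higher and 1, 3 and 4 lower, beside the shares of all genes in that fit given above.

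One question of the study was how PCa cells respond to OB-like cells. With MG63, some ISGs rose in C4-2 and C4-2B. In C4-2, 13 of 29 members rose and 0 fell (44.8%), beside 5.30% of all genes that rose and 4.79% that fell. Among the members that rose, DTX3L, GBP2, IFI6, PARP14, PARP9, PSMB8 and UBE2L6 were also called higher with RANKL alone, against the same controls. In C4-2B, 12 rose and 0 fell (41.4%), beside 3.52% and 3.89%. The median fold change of the members was 0.75 in C4-2 and 0.54 in C4-2B, against -0.01 and -0.00 over all genes. In 22Rv1, 2 rose and 2 fell, beside 11.2% and 9.18% of all genes, and with library size without TMM 2 rose and 5 fell, beside 6.75% and 16.9%. In DU145, 3 rose and 8 fell, beside 15.2% and 15.3%, and the median was -0.18 against -0.06 over all genes. The balance in DU145 moved with the method, with 5 higher and 6 lower by DESeq2, beside 18.8% and 13.9%, and 1 and 9 with library size without TMM, beside 12.0% and 22.6%. Because these controls had greater depth, the same co-cultures were also set against the RANKL mono-cultures. The co-cultures had no RANKL, so that comparison holds the difference in RANKL together with that in MG63. This gave 7 members higher and 1 lower in C4-2, beside 4.89% and 5.37% of all genes, 10 and 0 in C4-2B, beside 4.23% and 3.40%, 2 and 3 in 22Rv1, beside 8.02% and 7.26%, and 6 and 4 in DU145, beside 19.4% and 17.1%. The 2 sets of comparisons share the MG63 libraries. Of the members higher against either control, 8 were shared in C4-2B (of 12 and 10) and 5 in C4-2 (of 13 and 7). Leaving out MG63 replicate 2 left 8 of the 13 calls in C4-2, and leaving out MG63 replicate 1 or 2 left 4 or 5 of the 12 in C4-2B.

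The 9 members called in both BPCa lines against mono-cultures without additive were DTX3L, IFI35, IFI6, IRF1, OASL, PARP14, PARP9, PSMB8 and UBE2L6. Of these, IRF1, PARP14, PARP9 and DTX3L were also called in both lines against the RANKL mono-cultures. IRF1 was at 1.37, 1.77 and 1.12 CPM in C4-2 mono-cultures and at 6.51 and 4.56 CPM with MG63. In C4-2B it went from 1.33, 1.2 and 0.863 CPM to 3.70 and 4.27 CPM. Neither pair of groups overlapped, and the fold changes were 2.07 (SE 0.19, adjusted p = 6.0e-06) and 1.87 (SE 0.21, adjusted p = 6.6e-05). The RANKL mono-cultures held 1.19 and 1.73 CPM in C4-2 and 0.996 and 1.16 CPM in C4-2B, so IRF1 was as low with RANKL as without. In 22Rv1 it was at 1.79, 2.14 and 1.64 CPM alone and 1.57 and 1.35 CPM with MG63. IRF1 was the only tested transcription factor of the list to rise in C4-2 or C4-2B against mono-cultures without additive. STAT2, IRF7 and IRF9 were not called there, although IRF7 in C4-2B (1.26, SE 0.34, adjusted p = 0.021) and STAT2 in C4-2 (0.27, SE 0.09, adjusted p = 0.048) were called against RANKL mono-cultures.

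**Figure D3:**
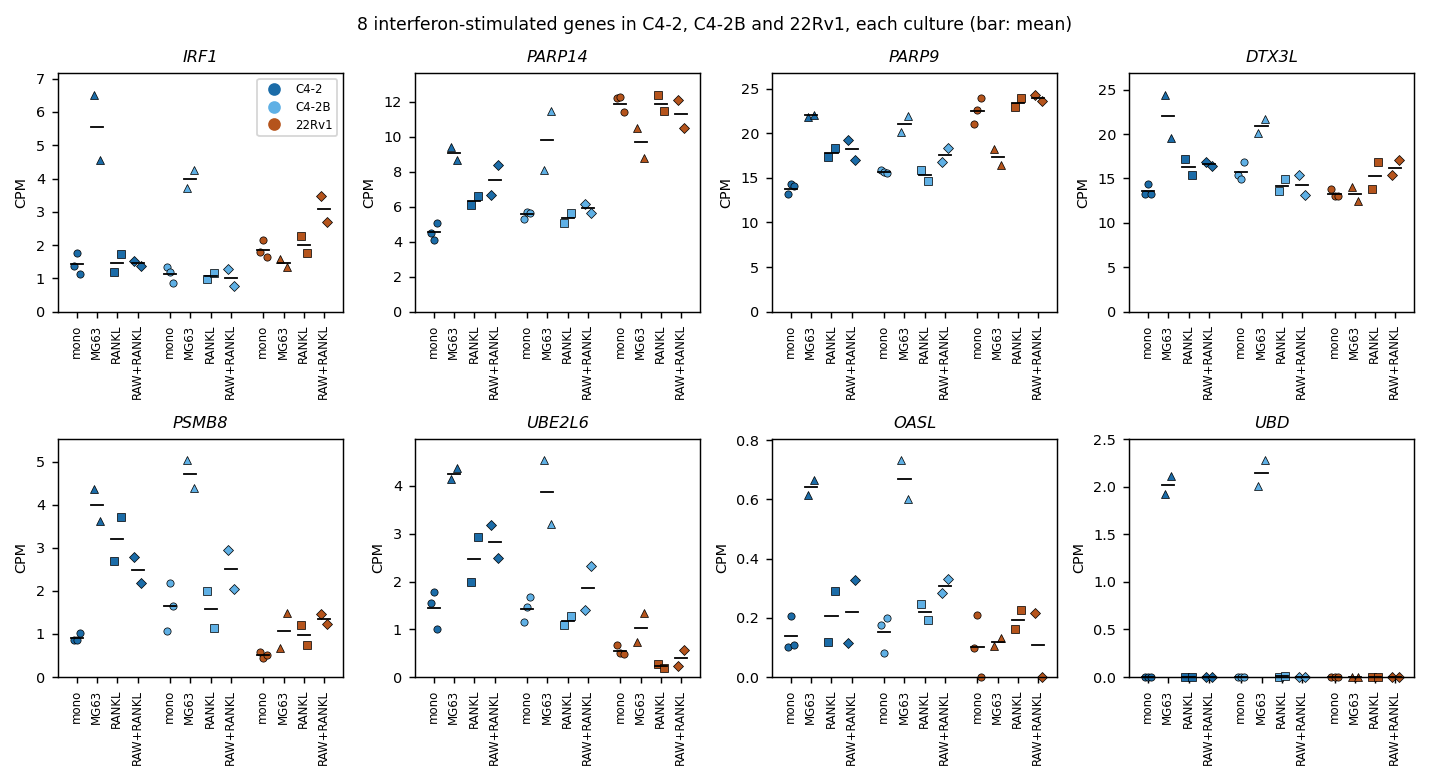
Levels (CPM, y axis from 0) of 8 members in C4-2, C4-2B and 22Rv1 by culture (x axis); points are libraries and bars are means. UBD is above 1 CPM only in the MG63 co-cultures of C4-2 and C4-2B in its panel, IRF1 of these lines is highest there, whereas PSMB8 and UBE2L6 of C4-2 are also raised in the RANKL and RAW264.7 cultures.

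PARP14, PARP9 and DTX3L lie near each other on chromosome 3 (GRCh38: PARP14 122680618 to 122730840, PARP9 122527924 to 122564577, DTX3L 122564238 to 122575203). PARP9 and DTX3L run in opposite directions and their annotated ends overlap, so reads from the shared stretch can be counted to either. PARP14 went from 4.48, 4.12 and 5.09 CPM to 9.44 and 8.69 CPM in C4-2 (1.1, SE 0.16, adjusted p = 2.9e-04), and from 5.31, 5.73 and 5.66 CPM to 8.13 and 11.5 CPM in C4-2B (0.87, SE 0.15, adjusted p = 0.0026). PARP9 went from 13.2, 14.3 and 14.1 CPM to 21.8 and 22.1 CPM in C4-2 (0.78, SE 0.10) and from 15.9, 15.7 and 15.5 CPM to 20.1 and 21.9 CPM in C4-2B (0.48, SE 0.10). DTX3L went from 13.3, 14.4 and 13.2 CPM to 24.4 and 19.5 CPM in C4-2 (0.80, SE 0.11) and from 15.4, 14.9 and 16.8 CPM to 20.1 and 21.7 CPM in C4-2B (0.48, SE 0.11). These changes were modest, and no groups overlapped. In C4-2 all 3 genes were also called higher with RANKL alone. The C4-2 RANKL mono-cultures were at means of 6.35, 17.8 and 16.3 CPM for PARP14, PARP9 and DTX3L. Against them the changes with MG63 were smaller, at 0.54 (SE 0.17), 0.33 (SE 0.10) and 0.45 (SE 0.13). In 22Rv1, PARP9 was at 21.0, 22.6 and 24.0 CPM alone and 18.2 and 16.4 CPM with MG63, and was lower with MG63 when set against the RANKL mono-cultures (-0.36, SE 0.10, adjusted p = 0.017).

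UBD, a ubiquitin-like protein also called FAT10 and a well known target of interferon-gamma and TNF, had too few counts for the main test. It was at 0 in all 12 mono-cultures without additive. It was at 1.92 and 2.11 CPM in C4-2 with MG63 and at 2.01 and 2.28 CPM in C4-2B with MG63, which were 27 to 33 counts per library. With 3 counts per library as the limit for the mono-cultures, UBD in C4-2 co-cultures was at least 18.6-fold higher. The lower bound in C4-2B was 21.5-fold, and the bounds against the RANKL mono-cultures were 7.31-fold and 8.65-fold. In the test without a filter on low counts, UBD was called in C4-2 (adjusted p = 0.0077) and C4-2B (adjusted p = 0.0096). It was at 0 in both 22Rv1 co-cultures, and at 0 and 0.266 CPM in those of DU145. No other of the 11 low members was called with MG63 in any line in that test.

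PSMB8 and UBE2L6, the E2 enzyme for ISG15, rose in both BPCa lines, but the choice of control mattered in C4-2. PSMB8 was at 0.864, 0.861 and 1.03 CPM in C4-2 mono-cultures and 4.37 and 3.63 CPM with MG63 (2.23, SE 0.31, adjusted p = 2.0e-04). The C4-2 RANKL mono-cultures were at 2.69 and 3.71 CPM and overlapped with the co-cultures (0.37, SE 0.32, adjusted p = 0.58). In C4-2B, PSMB8 went from 1.07, 2.18 and 1.66 CPM to 5.04 and 4.39 CPM (1.61, SE 0.28, adjusted p = 0.0022), and the RANKL mono-cultures stayed at 2.01 and 1.13 CPM (1.51, SE 0.35, adjusted p = 0.0076). UBE2L6 went from 1.55, 1.78 and 0.999 CPM to 4.14 and 4.38 CPM in C4-2 (1.66, SE 0.24, adjusted p = 3.0e-04) and from 1.16, 1.46 and 1.67 CPM to 4.54 and 3.20 CPM in C4-2B (1.52, SE 0.24, adjusted p = 0.0014). Against RANKL mono-cultures it was called in C4-2B (1.73, SE 0.32, adjusted p = 8.3e-04) and fell just short in C4-2 (0.82, SE 0.27, adjusted p = 0.056). In 22Rv1, UBE2L6 was at 0.680, 0.506 and 0.475 CPM alone and 0.731 and 1.33 CPM with MG63, which was not called (1.00, SE 0.39, adjusted p = 0.082). The 22Rv1 RANKL mono-cultures were lower, at 0.278 and 0.199 CPM and at or under 3 counts, and the co-cultures were at least 3.46-fold above them. HERC5 was the member lower in C4-2 with MG63 than with RANKL alone, at 1.76 and 1.66 CPM against 4.22 and 4.88 CPM (-1.36, SE 0.24, adjusted p = 3.6e-04).

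GBP2, an interferon-induced GTPase, showed the largest fitted change with MG63 in C4-2 among the 29 tested members, from 0.308, 0.385 and 0.366 CPM to 3.51 and 3.11 CPM (3.31, SE 0.37, adjusted p = 3.0e-05). It was equally high in the C4-2 RANKL mono-cultures, at 3.50 and 2.91 CPM, so that against them no difference was called (0.05, SE 0.31, adjusted p = 0.96). In C4-2B, the GBP2 mono-cultures varied from 0.810 to 2.23 CPM and the co-cultures were at 2.90 and 3.06 CPM (1.02, SE 0.32, adjusted p = 0.068). IFI6 rose in C4-2 from 9.01 to 9.55 CPM to 16.6 and 17.5 CPM (0.98, SE 0.14) and in C4-2B from 9.50 to 12.6 CPM to 17.1 and 18.1 CPM (0.73, SE 0.14), and was not called against RANKL mono-cultures in either line (adjusted p = 0.77 and 0.15). In C4-2, OASL (1.63, SE 0.73), IFI44 (0.48, SE 0.51) and SAMD9 (1.3, SE 0.62) were not called against RANKL mono-cultures either (adjusted p = 0.18, 0.66 and 0.22). In C4-2B, OASL (1.66, SE 0.74), IFIT2 and IFIT3 were not called against them (adjusted p = 0.20, 0.24 and 0.053), and since these controls were at or under 3 counts for IFIT2 and IFIT3, the bounds were at least 2.07-fold and 2.40-fold higher with MG63.

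Several antiviral members were called at very low levels. OASL was at 0.103, 0.206 and 0.109 CPM in C4-2 alone and 0.615 and 0.664 CPM with MG63 (2.37, SE 0.56, adjusted p = 0.012). In C4-2B it was at 0.177, 0.0798 and 0.198 CPM alone and 0.732 and 0.601 CPM with MG63 (2.14, SE 0.55, adjusted p = 0.025). IFIT2 in C4-2B was at 0.145, 0.111 and 0.0295 CPM alone and 0.370 and 0.655 CPM with MG63, which were 5 and 9 counts (2.49, SE 0.65, adjusted p = 0.028), and in C4-2 it was not called (1.60, SE 0.52, adjusted p = 0.067). IFIT3 was called in C4-2B, from 0.150, 0.227 and 0.132 CPM to 0.634 and 0.558 CPM (1.88, SE 0.45, adjusted p = 0.016). SAMD9 in C4-2 went from 0.194, 0.152 and 0.137 CPM to 0.823 and 0.376 CPM (2.00, SE 0.58, adjusted p = 0.046). IFI44, an antiviral protein of the cytoplasm, went from 0.524, 0.397 and 0.781 CPM to 1.70 and 2.08 CPM in C4-2 (1.81, SE 0.47, adjusted p = 0.022). The OASL co-cultures of either BPCa line reached at most 0.732 CPM, whereas DU145 held OASL at 45.7 CPM or more when grown alone. Among the abundant members of this class, OAS3, which makes the oligoadenylate activator of RNase L, rose in C4-2B from 13.3, 12.2 and 12.9 CPM to 19.8 and 16.8 CPM (0.58, SE 0.16, adjusted p = 0.037), and ISG20, an RNA exonuclease, rose in C4-2 from 13.6, 13.3 and 13.5 CPM to 20.3 and 21.8 CPM (0.75, SE 0.16, adjusted p = 0.0055).

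**Figure D4:**
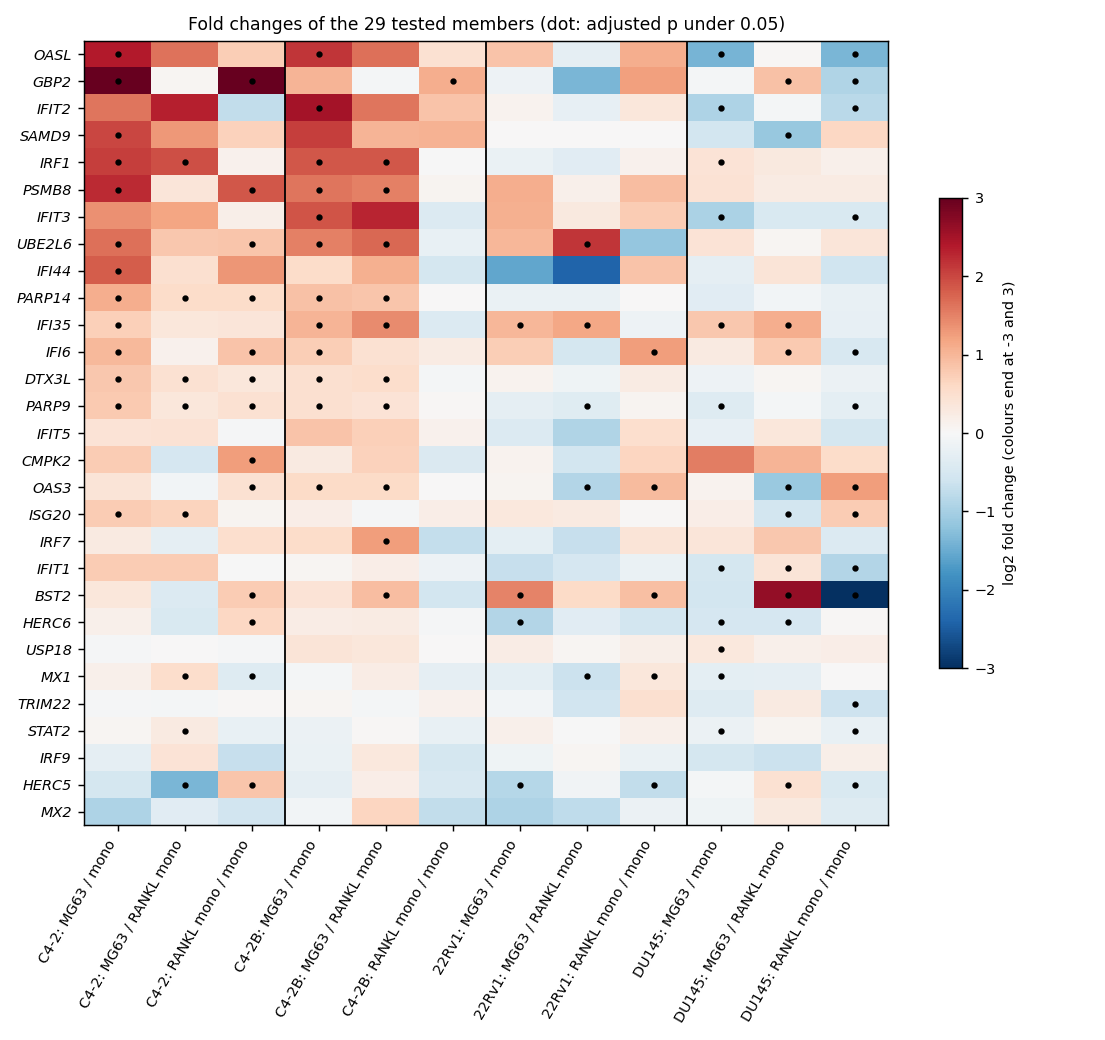
Log2 fold changes (colour, ending at -3 and 3) of the 29 tested members (rows, ordered by their mean change with MG63 in C4-2 and C4-2B) in each line for MG63 against mono-culture, MG63 against RANKL mono-culture and RANKL against no RANKL mono-culture (columns); a dot marks an adjusted p under 0.05. Both C4-2 and C4-2B have mostly red columns for MG63 against mono-culture, DU145 and 22Rv1 do not, and the GBP2 rise in C4-2 is also present in the RANKL column.

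The counts by role stand beside the shares of all genes given above, 5.30% higher in C4-2, 3.52% higher in C4-2B, 9.18% lower in 22Rv1 and 15.3% lower in DU145, and groups of this size show no more than which members were called. The PARP9, PARP14 and DTX3L group had all 3 members higher in C4-2 and in C4-2B, and 0 higher with 1 lower in DU145. The ISG15 system, with 4 tested members, had 1 higher (UBE2L6) in each BPCa line, 2 lower in 22Rv1, and 1 higher and 1 lower in DU145. The IFIT family, with 4 tested members, had 2 higher in C4-2B, 0 called in C4-2 and 22Rv1, and 3 lower in DU145. The OAS group, with 4 tested of 7, had 2 higher in each BPCa line and 1 lower in DU145. The GTPases, with 3 tested of 4, had 1 higher in C4-2 (GBP2) and 1 lower in DU145 (MX1). The other effectors, with 6 tested of 11, had 4 higher in C4-2, 2 in C4-2B, 2 in 22Rv1 and 1 in DU145.

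In 22Rv1, 4 members were called. BST2 rose from 1.48, 1.21 and 2.05 CPM to 3.78 and 4.58 CPM (1.48, SE 0.24, adjusted p = 4.9e-04), and the RANKL mono-cultures, at 2.97 and 2.92 CPM, lay between (0.58, SE 0.32, adjusted p = 0.26). HERC5, the main E3 ligase for ISG15, fell from 4.70, 3.83 and 5.54 CPM to 2.87 and 1.91 CPM (-0.85, SE 0.21, adjusted p = 0.0088). HERC6, its paralog, fell from 1.44, 1.48 and 2.08 CPM to 1.07 and 0.615 CPM (-0.88, SE 0.27, adjusted p = 0.031). The RANKL mono-cultures were at 2.95 and 2.59 CPM for HERC5 and at 1.02 and 1.31 CPM for HERC6, and neither was called against them (-0.10 and -0.34, adjusted p = 0.87 and 0.66). Both calls were also lost without MG63 replicate 2, where HERC5 was at -0.66 (adjusted p = 0.12) and HERC6 at -0.60 (adjusted p = 0.29), and that of HERC6 without mono-culture replicate 3 (-0.68, adjusted p = 0.15). IFI35, a partner of the transcription regulator NMI, rose from 5.06, 4.44 and 5.92 CPM to 10.2 and 8.95 CPM (1.00, SE 0.21, adjusted p = 0.0037), and was not called without MG63 replicate 1 (0.91, adjusted p = 0.058).

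IFI35 was the only member called in the same direction in all 4 lines with MG63. It went from 6.22, 6.48 and 6.38 CPM to 10.1 and 9.31 CPM in C4-2 (0.72, SE 0.21, adjusted p = 0.037), from 7.60, 8.68 and 7.29 CPM to 15.9 and 14.6 CPM in C4-2B (1.02, SE 0.19, adjusted p = 0.0044), and from 26.8, 28.2 and 25.5 CPM to 31.3 and 58.8 CPM in DU145 (0.81, SE 0.17, adjusted p = 0.0035). Against RANKL mono-cultures it was called in C4-2B (1.41), 22Rv1 (1.15) and DU145 (1.1) and not in C4-2 (0.34, SE 0.26, adjusted p = 0.49). In DU145 the wide gap between the co-cultures made this call depend on MG63 replicate 2.

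In DU145, where ISGs were high at the outset, IFIT1, IFIT2, IFIT3 and OASL fell, and IFIT5 was not called (-0.24, SE 0.26, adjusted p = 0.52). OASL fell from 50.8, 45.7 and 54.8 CPM to 16.5 and 20.2 CPM (-1.39, SE 0.18, adjusted p = 1.5e-04). IFIT3 fell from 36.3, 36.4 and 42 CPM to 17.2 and 20.3 CPM (-0.96, SE 0.16, adjusted p = 6.4e-04). IFIT2 fell from 21.4, 19.9 and 24.6 CPM to 9.09 and 13.1 CPM (-0.92, SE 0.24, adjusted p = 0.011). IFIT1 fell from 48.6, 47.3 and 55.6 CPM to 31.4 and 35.1 CPM (-0.53, SE 0.14, adjusted p = 0.011). All 4 lay below the mono-cultures in both co-cultures. HERC6, PARP9, MX1 and STAT2 also fell, by 0.51, 0.39, 0.30 and 0.18 on the log2 scale, and IRF1 (0.42, SE 0.15, adjusted p = 0.041) and USP18 (0.31, SE 0.11, adjusted p = 0.047) rose. Without MG63 replicate 2, 4 members were called, all lower, beside 7.05% of all genes higher and 7.85% lower: OASL (-1.54), IFIT2 (-1.19), IFIT3 (-1.08) and IFIT1 (-0.61). The other calls were lost there, and IFI35 (0.30), IRF1 (0.39), HERC6 (-0.45), PARP9 (-0.17) and STAT2 (-0.21) had adjusted p of 0.13, 0.14, 0.17, 0.45 and 0.080. Without MG63 replicate 1, 7 members were higher and 9 lower, beside 23.5% and 31.4% of all genes, with OASL at -1.25, IFIT3 at -0.85 and IFI35 at 1.19. Without mono-culture replicate 3, 1 was higher and 3 lower, beside 12.6% and 11.2%. Against the RANKL mono-cultures none of the 4 IFIT and OASL genes was called lower: OASL differed by 0.03 (adjusted p = 0.94), IFIT2 by -0.06 (adjusted p = 0.88), IFIT3 by -0.45 (adjusted p = 0.059), and IFIT1 was higher (0.39, SE 0.15, adjusted p = 0.040). The DU145 calls of IRF1 (0.30), USP18 (0.16), PARP9 (-0.05), MX1 (-0.26) and STAT2 (0.09) were also lost there, with adjusted p of 0.13, 0.30, 0.85, 0.081 and 0.42.

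**Figure D5:**
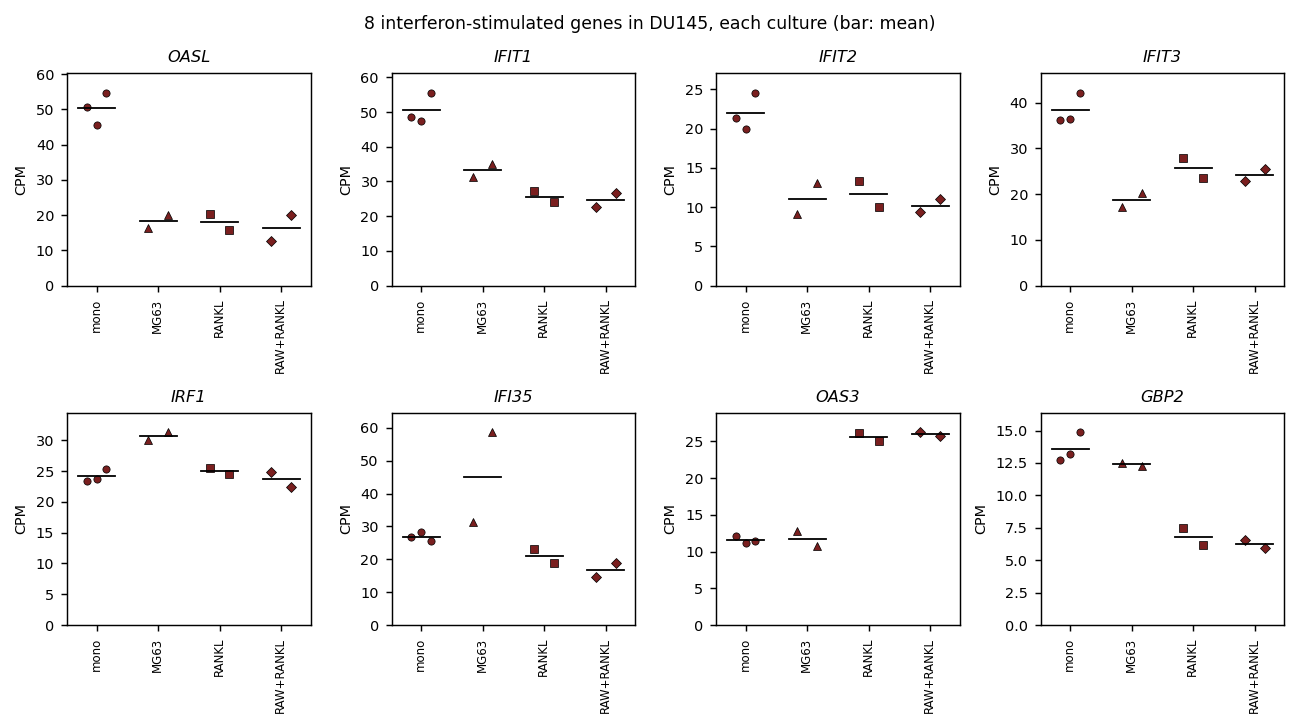
Levels (CPM, y axis from 0) of 8 members in DU145 by culture (x axis); points are libraries and bars are means. OASL, IFIT1, IFIT2 and IFIT3 are highest in the mono-cultures without additive and lower in all 3 other cultures, and OAS3 is raised in the RANKL cultures alone, at 25.1 to 26.3 CPM.

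The response to MG63 was compared directly between BPCa and LPCa, as the mean fold change of C4-2 and C4-2B minus that of DU145 and 22Rv1. Of 29 members, 13 responded more positively in BPCa and 0 in LPCa, beside 4.85% and 4.99% of all genes. Of these 13, GBP2, IFI44, IFIT1, IFIT3, IRF1, OASL, PSMB8 and UBE2L6 passed the filter through DU145 alone, so the filter shaped this count. Without the filter, 8 members were called. The median difference of the members was 0.66 against 0.01 over all genes. The clearest were IRF1 (1.87, SE 0.20, adjusted p = 5.7e-05), PARP9 (0.96, SE 0.11, adjusted p = 7.1e-05), PARP14 (1.25, SE 0.15, adjusted p = 1.8e-04) and DTX3L (0.66, SE 0.11, adjusted p = 0.0025). OASL (2.53), GBP2 (2.27), IFI44 (2.09), IFIT3 (1.57), PSMB8 (1.15), IFIT1 (1.02), HERC6 (0.89), UBE2L6 (0.89) and MX1 (0.34) followed, with adjusted p from 0.0070 to 0.049. IRF1, PARP9, PARP14, DTX3L and GBP2 were called without any 1 of the 20 libraries. The other calls depended on single libraries, and IFI44, IFIT3, PSMB8, UBE2L6 and MX1 were called in only 7, 5, 6, 5 and 5 of these 20 fits. For IFI44 the difference was 1.51 (adjusted p = 0.13) without 22Rv1 MG63 replicate 1 and 4.38 (adjusted p = 0.029) without 22Rv1 MG63 replicate 2, and for OASL it was 1.94 (adjusted p = 0.13) without 22Rv1 mono-culture replicate 2. Both genes were at or under 3 counts in the 22Rv1 MG63 co-cultures, so the size of these fitted differences is uncertain. GBP2 and IFIT3 were also near this limit there, at means of 0.209 and 0.206 CPM, so the size of their differences is uncertain too. With RANKL mono-cultures as controls the GBP2 difference was 0.24 (SE 0.44, adjusted p = 0.76). OASL was called higher in both BPCa lines and lower in DU145. IFIT3 was called higher in C4-2B and lower in DU145, and IFIT1 was called in DU145, where it was lower, and in no other line. With RANKL mono-cultures as controls, 6 members differed in this direction and 1, HERC5, in the other, beside 9.83% and 10.6% of all genes, and IRF1 (1.93), PARP14 (0.84), PARP9 (0.58), DTX3L (0.52) and MX1 (0.82) were called under both. The count of 13 went to 7 without 22Rv1 mono-culture replicate 2, C4-2 MG63 replicate 1 or C4-2B MG63 replicate 1, to 8 without 22Rv1 mono-culture replicate 1, DU145 mono-culture replicate 1 or 3, 22Rv1 MG63 replicate 1 or C4-2 MG63 replicate 2, and lay between 9 and 15 without any other library. Between the BPCa lines, 0 members differed in response by edgeR's test, beside 0.179% of all genes. There, 4 members had an unadjusted p under 0.05, and DESeq2 called 1. Between DU145 and 22Rv1, 2 differed, beside 10.4% of all genes: BST2 (-2.03, SE 0.47, adjusted p = 0.012) and STAT2 (-0.34, SE 0.09, adjusted p = 0.030), both lower in DU145. By DESeq2, 1 was higher and 2 lower, beside 7.62% and 7.23%. With RANKL mono-cultures as controls neither was called (adjusted p = 0.15 for BST2), and STAT2 differed by 0.10 (SE 0.12, adjusted p = 0.60). For BST2 no value is given there, since it was at or under 3 counts in the DU145 RANKL mono-cultures, and the DU145 MG63 co-cultures were at least 2.32-fold higher than these.

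Of the 21 upstream genes tested with MG63, 4 rose in C4-2, beside 5.30% of all genes, 1 rose in C4-2B, beside 3.52%, and 2 rose and 3 fell in DU145, beside 15.2% and 15.3%. TICAM1, the adaptor of TLR3, rose in every line, by 0.50, 0.51, 0.58 and 0.49 in C4-2, C4-2B, 22Rv1 and DU145 (adjusted p from 0.0012 to 0.0042), for example from a mean of 15.0 to 19.6 CPM in C4-2. SOCS3, a feedback inhibitor of JAK kinases, rose in C4-2 from a mean of 0.0671 to 0.355 CPM (2.34, SE 0.63, adjusted p = 0.026). DDX58 in C4-2 went from 0 in all mono-cultures to 0.659 and 1.04 CPM, at least 7.86-fold higher, whereas in C4-2B it went from a mean of 0.281 CPM to 0 in both co-cultures. STING1 in DU145 fell from 68.3, 73.1 and 73.4 CPM to 33.0 and 38.1 CPM (-0.94, SE 0.18, adjusted p = 0.0015). DHX58, an RNA sensor, and IFNAR1 also fell in DU145, by 1.16 and 0.34 on the log2 scale, and IRF3 rose by 0.87. STING1 was called without either DU145 MG63 library, and fell by 0.85 without replicate 1 and by 1.04 without replicate 2. DHX58 was not called without replicate 1 (-0.54, adjusted p = 0.26), and IFNAR1 (-0.15, adjusted p = 0.28), IRF3 (0.27, adjusted p = 0.073) and TICAM1 (0.34, adjusted p = 0.053) were not called without replicate 2. IFNAR1 rose in C4-2 (0.32, SE 0.09, adjusted p = 0.028). No ligand gene that was at 0 in the mono-cultures of C4-2 or C4-2B reached the test.

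RANKL alone was compared between mono-cultures within each line, and the difference between lines was not tested. In C4-2, 12 members were higher and 1 lower, beside 9.16% and 9.16% of all genes. In C4-2B, 1 was higher and 0 lower, beside 6.07% and 8.32%, and with library size without TMM 1 was higher and 2 lower, beside 3.73% and 14.6%. In 22Rv1, 4 were higher and 1 lower, beside 8.90% and 8.85%, and in DU145 2 were higher and 11 lower, beside 16.9% and 15.6%. These comparisons share their controls with the MG63 comparisons, and RANKL libraries had lower depth throughout, the part of which was not tested. The counts with RANKL also depended on single libraries, with the ranges given at the end. GBP2 went from 0.308 to 0.385 CPM to 3.50 and 2.91 CPM in C4-2 (3.25, SE 0.34, adjusted p = 1.8e-07), and from 0.810, 2.23 and 1.62 CPM to 3.04 and 3.16 CPM in C4-2B (1.08, SE 0.29, adjusted p = 0.012). In DU145 GBP2 fell from 12.7, 13.2 and 14.9 CPM to 7.45 and 6.15 CPM (-0.90, SE 0.24, adjusted p = 0.0056). PSMB8 rose in C4-2 (1.86, SE 0.34, adjusted p = 3.1e-04). IFI6 rose in C4-2 (0.85, SE 0.17) and 22Rv1 (1.26, SE 0.36, adjusted p = 0.014), and fell in DU145 (-0.48, SE 0.15, adjusted p = 0.014).

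OAS3 and BST2 were called with RANKL in C4-2 and in both osteolytic lines. OAS3 rose in DU145 from 12.1, 11.2 and 11.4 CPM to 26.1 and 25.1 CPM (1.25, SE 0.13, adjusted p = 9.1e-08), and in 22Rv1 from 7.29, 4.58 and 4.06 CPM to 9.08 and 11 CPM (0.96, SE 0.16, adjusted p = 1.4e-04), and the fold change in C4-2 was 0.46 (SE 0.14, adjusted p = 0.024). BST2 in DU145 fell from 0.962, 0.850 and 0.583 CPM to 0.133 and 0 CPM, at or under 3 counts, and was thus at least 3.35-fold higher without RANKL. In 22Rv1 BST2 rose from 1.21 to 2.05 CPM to 2.97 and 2.92 CPM (0.90, SE 0.31, adjusted p = 0.043), and in C4-2 from 6.47 to 7.5 CPM to 12.5 and 9.99 CPM (0.75, SE 0.23, adjusted p = 0.020). In DU145, OASL (-1.38), IFIT1 (-0.88), IFIT2 (-0.81) and IFIT3 (-0.46) fell with RANKL, the genes that also fell with MG63 against the same controls. TRIM22, an E3 ligase that restricts viruses, fell from 8.21, 10.0 and 10.7 CPM to 5.32 and 6.42 CPM (-0.61, adjusted p = 0.021), and ISG20 rose from 17.2, 15.6 and 19.8 CPM to 29.9 and 25.8 CPM (0.77, SE 0.16, adjusted p = 4.8e-04). IRF1 was not called with RANKL in any line (adjusted p = 0.43 to 0.99).

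No tested member was called between RAW264.7 co-culture with RANKL and mono-culture with RANKL. Of 24 members, 0 were called by edgeR's test in C4-2, C4-2B, 22Rv1 or DU145, beside 0.0174%, 0.139%, 0.00868% and 0.0260% of all genes, and 0 differed in response between BPCa and LPCa, beside 0.0781%. At an unadjusted p under 0.05 there were 1, 4, 3 and 0 members in the 4 lines and 2 for the difference, and DESeq2 also called 0 in each. The smallest adjusted p of a member was 0.54, in C4-2B. IRF1 was at 2.26 and 1.76 CPM with RANKL and 3.48 and 2.68 CPM with RAW264.7 in 22Rv1, and at 1.19 and 1.73 CPM and 1.53 and 1.38 CPM in C4-2. UBD was at 0 in all RAW264.7 co-cultures. With 2 libraries per group, changes smaller than the replicate spread were not detectable at this depth.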

How the data were processed

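RNA-seq was read for 36 libraries of 4 PCa lines in 4 cultures (2 or 3 per group). The authors quantified reads with kallisto and deposited estimated counts per transcript, without normalization. FastQC, kallisto and hg19 are named in the submitters' processing notes. All 36 value columns were mapped to a sample by label. Of 161149 lines, 1312 repeats were dropped, and the 159837 transcripts were summed by symbol and rounded. Transcripts without a symbol held 0.526% to 0.764% of counts and stayed out of the tests. Kallisto divides reads among similar transcripts, so close paralogs such as the IFIT genes share some uncertainty. Levels are CPM of the library total, and TPM and positions used GENCODE 29 (GRCh38), a build other than the hg19 that is named. Depth ranged from 9593426 to 36719047 counts, and 3 counts were the detection limit, which covers counting error only.

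Genes with 100 counts in at least 1 library of a fit were tested with edgeR 4.0.16 in R 4.3.3 (TMM, quasi-likelihood, Benjamini-Hochberg over all genes). MG63 and mono-culture comparisons were fitted on the 20 libraries without RANKL, RAW264.7 comparisons on the 16 with RANKL, and RANKL comparisons on all 36. The script was tested on simulated data. The alternatives were no filter, library size without TMM, DESeq2 1.42.0, a replicate block, the fold and p rule of the study, RANKL mono-cultures as controls, other sets of libraries and leaving out each replicate. Members named in full were the 16 with the largest called MG63 changes, those called in opposite directions, the 3 highest per length in each line and the 2 with the largest called RANKL or RAW264.7 changes. The members, gene lists and tests were chosen with earlier results of these data known. Results for 1 gene of the upstream list are not reported here.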

Additional observations from a re-analysis of the deposited data

Results flagged for a closer look

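For 15 values, the response to MG63 differed between lines in a test of the difference itself. BPCa lines minus LPCa lines gave log2 differences of 0.66 for DTX3L, 2.27 for GBP2, 0.89 for HERC6, 2.09 for IFI44, 1.02 for IFIT1, 1.57 for IFIT3, 1.87 for IRF1, 0.34 for MX1, 2.53 for OASL, 1.25 for PARP14, 0.96 for PARP9, 1.15 for PSMB8 and 0.89 for UBE2L6. Of all genes, 4.85% were called higher and 4.99% lower in that test. As given above, only IRF1, PARP9, PARP14, DTX3L and GBP2 were called whichever library was left out. The sizes for GBP2, IFI44, IFIT3 and OASL are uncertain. DU145 minus 22Rv1 gave -2.03 for BST2 and -0.34 for STAT2, beside 10.4% of all genes called. No group had the 4 libraries that the check for single outlying libraries needs.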

How the results depend on the processing

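Of 309 recomputed counts of called members, 237 stayed within 1.5 times the reported count and 72 moved. Single members were recomputed only where they had been called, so gained calls were not counted. Of these 1161 recomputed values, 834 kept the call, 323 lost it and 4 reversed. The reversals came with RANKL mono-cultures as controls: OASL (0.03) and STAT2 (0.09) in DU145, and BST2 (2.07) and STAT2 (0.10) for DU145 minus 22Rv1, of which the BST2 value rests on DU145 RANKL mono-cultures at or under 3 counts and gives no size. The cause was not tested. The counts in this section are given without the share of all genes, which also differed between settings. They show how the calls moved and are not results about the members. With MG63, requiring also a 2-fold change left 8 members in C4-2, 7 in C4-2B, 1 in 22Rv1 and 1 in DU145, 8 for BPCa minus LPCa and 1 for DU145 minus 22Rv1. It left 8 and 13 for 22Rv1 against C4-2 and C4-2B, 1 for C4-2B against C4-2, and, with RANKL, 3 in C4-2, 1 in 22Rv1 and 3 in DU145. The rule of the study, 2-fold with an unadjusted p, gave 2 in 22Rv1 and 2 in DU145 with MG63, 1 for C4-2B minus C4-2, 4 for DU145 minus 22Rv1, 8 and 13 for 22Rv1 against C4-2 and C4-2B, 1 with RAW264.7 in 22Rv1 and 1 for its difference, and 4, 2 and 3 with RANKL in C4-2, 22Rv1 and DU145. DESeq2 gave 7 with MG63 in 22Rv1, 1 for C4-2B minus C4-2 and 6 for C4-2B against C4-2. The fit of all 36 libraries gave 7, 1 and 4. No filter gave 7 with MG63 in DU145, 8 for BPCa minus LPCa, 1 for DU145 minus 22Rv1, and 2 and 3 with RANKL in C4-2B and 22Rv1. RANKL controls gave 8 in C4-2, 7 for BPCa minus LPCa, 2 for C4-2B minus C4-2 and 5 for DU145 minus 22Rv1. Library size without TMM gave 7 in 22Rv1 (2 higher, 5 lower), 1 for DU145 minus 22Rv1 and 3 with RANKL in C4-2B, and put the median of all genes with MG63 at -0.12, -0.06, -0.11 and -0.13 in C4-2, C4-2B, 22Rv1 and DU145, where it was -0.01, -0.00, 0.00 and -0.06 with TMM. Fitting only the 20 mono-cultures gave 4 with RANKL in C4-2B.

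Leaving out single replicates gave 8 to 12 with MG63 in C4-2, 4 to 10 in C4-2B, 2 to 4 in 22Rv1, 4 to 16 in DU145, 7 to 15 for BPCa minus LPCa, 0 to 1 for C4-2B minus C4-2 and 1 to 6 for DU145 minus 22Rv1. It gave 11 to 14 and 18 to 20 for 22Rv1 against C4-2 and C4-2B, 1 to 3 for C4-2B against C4-2, 0 with RAW264.7, and 6 to 11, 0 to 1, 1 to 5 and 6 to 11 with RANKL in C4-2, C4-2B, 22Rv1 and DU145.

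Replicate numbers did not pair the libraries, since deviations of same-numbered libraries had mean correlations of -0.0327, 0.0185 and 0.0180. With the replicate block, 6 members were called with MG63 in DU145, 12 in C4-2, 10 in C4-2B, 4 in 22Rv1 and 10 for BPCa minus LPCa. Members near 3 counts outside DU145 limit what this depth can show.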
